A study of Mus musculus with 2 samples.

Results

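The AP-1 transcription factors and the immediate-early factor Egr1 were followed in 2 single-cell RNA libraries of mouse spleen cells sorted for CD11b and Gr1, surface proteins of neutrophils and monocytes. The set holds 10 of the 27998 genes in the deposited matrices, taken by symbol: Fos, Fosb, Fosl2, Jun, Junb, Jund, Atf3, Batf, Maff and Egr1, all with a row in both matrices. The wild-type library pooled FVB/n spleens from 5 mice, and the PyMT library pooled spleens from 3 mice that bore tumours. PyMT is the field's short name for mice that carry the polyoma middle T oncogene, a model of mammary cancer. The strain label of the PyMT group is PYMT alone. The promoter behind the oncogene, the background strain and the age of the mice are not given in the sources used here. With 1 pooled library in each group, mice cannot be told apart, no value has a replicate check and no p-value between groups can be given. Every difference below compares these 2 libraries.

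AP-1 is a dimer of basic leucine zipper (bZIP) proteins that binds DNA and switches genes on or off. JUN proteins pair with each other or with FOS proteins, which cannot pair among themselves, and ATF3, BATF and the small MAF protein MAFF join the same network. Fos, Fosb, Jun, Junb, Atf3 and Egr1 are immediate-early genes: growth factors, cytokines, microbial products and stress induce them within minutes through MAP kinases, with no need for new protein. In myeloid cells, AP-1 and EGR1 are known for their part in differentiation and in cytokine gene expression. The same genes are also known to respond when tissue is dissociated into single cells, together with heat shock genes.

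Promoters are shown for 5 of the 10 members: Fos and Jun, the founding pair of AP-1, Junb, Fosb and Atf3. Each sequence runs from 250 bases before to 50 bases after the RefSeq start of transcription and is written 5′ to 3′ on the gene's strand (RefSeq, build GRCm38.p6). Fos is at chr12:85473640-85473939 on the plus strand. The other windows are on the minus strand: Fosb at chr7:19309996-19310295, Jun at chr4:95052173-95052472, Junb at chr8:84978699-84978998 and Atf3 at chr1:191183284-191183583. The Atf3 window lies inside the gene's longest annotated span (GENCODE M21, 191170296 to 191218039), and the other windows cover the annotated 5′ end of their gene. Capitals mark a cAMP response element half-site (TGACG, which ATF and CREB proteins bind), a TATA box (TATAAA) or a CCAAT box (CCAAT), searched on both strands.
Fos: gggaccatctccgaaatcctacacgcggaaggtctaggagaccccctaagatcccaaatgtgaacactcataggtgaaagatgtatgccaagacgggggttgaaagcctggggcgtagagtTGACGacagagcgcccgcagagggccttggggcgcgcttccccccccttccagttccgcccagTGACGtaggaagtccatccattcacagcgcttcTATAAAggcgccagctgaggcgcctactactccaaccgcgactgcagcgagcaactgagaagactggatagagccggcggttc
Fosb: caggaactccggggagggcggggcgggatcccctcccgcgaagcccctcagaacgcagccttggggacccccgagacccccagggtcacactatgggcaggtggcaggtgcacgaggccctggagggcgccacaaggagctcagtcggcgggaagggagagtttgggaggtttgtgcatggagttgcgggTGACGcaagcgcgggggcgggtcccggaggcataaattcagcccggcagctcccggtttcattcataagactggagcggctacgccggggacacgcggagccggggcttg
Jun: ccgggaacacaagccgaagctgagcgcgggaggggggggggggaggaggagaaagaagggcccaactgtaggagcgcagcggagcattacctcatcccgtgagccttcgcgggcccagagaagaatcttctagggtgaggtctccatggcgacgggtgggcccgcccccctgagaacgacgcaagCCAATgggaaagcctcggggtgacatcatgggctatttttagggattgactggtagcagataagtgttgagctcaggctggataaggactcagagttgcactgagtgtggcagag
Junb: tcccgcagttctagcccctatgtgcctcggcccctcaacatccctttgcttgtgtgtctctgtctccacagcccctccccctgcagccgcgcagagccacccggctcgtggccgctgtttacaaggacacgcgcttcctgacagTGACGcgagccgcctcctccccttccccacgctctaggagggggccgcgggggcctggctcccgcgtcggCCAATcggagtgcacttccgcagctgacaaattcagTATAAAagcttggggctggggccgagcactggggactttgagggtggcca
Atf3: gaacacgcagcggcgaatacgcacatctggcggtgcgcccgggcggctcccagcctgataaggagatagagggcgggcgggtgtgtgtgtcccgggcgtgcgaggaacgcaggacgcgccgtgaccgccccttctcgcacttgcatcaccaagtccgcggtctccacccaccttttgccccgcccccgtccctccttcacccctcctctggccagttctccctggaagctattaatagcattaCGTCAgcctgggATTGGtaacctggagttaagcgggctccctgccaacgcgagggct
The half-site was found in 4 of these 5 windows, all but that of Jun, and in 21.0% of the 27018 promoters of the same length. A TATA box was found in the Fos and Junb windows (14.2% of all promoters), and a CCAAT box in those of Jun, Junb and Atf3 (37.9%). The full cAMP response element TGACGTCA (1.88% of all promoters, and a match to it also counts as a half-site), the AP-1 site TGANTCA (7.94%) and the CArG box that SRF binds (1.57%) had no match in these windows. RefSeq windows were found for 9 of the 10 members, all but Egr1. Among the windows not shown, those of Fosl2 and Jund had no match and that of Batf had a half-site. The Jund window (chr8:70697489-70697788) ends before the annotated start of the gene at 70698949. The Fosl2 window (chr5:32136222-32136521) lies inside the annotated gene, which starts at 32135801. Neither covers the annotated 5′ end. Maff has several windows: in one the full element was found, in another a half-site alone, and in another no match. A match is a run of letters and is not a measured binding site.

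Cells were assigned to classes from their own counts of unique molecular identifiers (UMIs), which count captured mRNA molecules. Neutrophils, with at least 10% of UMIs from S100a8 and S100a9 and under 2 UMIs of Cd79a and Cd79b, numbered 3980 (wild type) and 5488 (PyMT). Monocytes (under 5%, with at least 2 UMIs of Csf1r and Ccr2) numbered 530 and 1526, and B cells (under 5%, with at least 3 UMIs of Cd79a and Cd79b) numbered 304 and 1081. B cells are not the target of the sort. All 10 neutrophil markers reached 50 CPM (UMIs of a gene per 1000000 UMIs of the class in that library) in neutrophils, all 10 B cell markers did so in B cells, and 9 of 10 monocyte markers in monocytes, in both libraries. This level was also reached outside the own class. In wild type and PyMT, 6 and 7 of the neutrophil markers reached it in monocytes, and 4 and 7 in B cells. Of the monocyte markers, 5 and 4 did so in neutrophils, and 5 and 4 in B cells. No B cell marker did so in neutrophils or monocytes. The median neutrophil held 5630 UMIs (wild type) or 8285 UMIs (PyMT), and 72 barcode sequences occurred in both libraries. S100a8 and S100a9, which B cells should lack, made up 0.908% of UMIs in wild-type B cells and 1.58% in PyMT B cells. The class rule itself holds this share under 5% in each cell. Whether these UMIs came from free RNA in the droplets or from cells caught together was not tested. A class sum cannot tell fewer cells that transcribe a gene from less RNA per cell.

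Neutrophils were further split by Camp, which encodes cathelicidin, a granule protein of maturing neutrophils. Cells with at least 4% of UMIs from Camp (Camp-high) numbered 3456 in wild type and 1619 in PyMT, cells with 1 to 4% (Camp-intermediate) 468 and 1812, and cells under 1% (Camp-low) 56 and 2057. Camp-high cells thus gave 88.9% of the neutrophil UMIs in wild type and 40.3% in PyMT. Depth differed between the libraries within the strata. The median Camp-high cell held 5756.5 UMIs in wild type and 11556 in PyMT. Camp-intermediate cells held 4616.5 and 9607.5 UMIs, and Camp-low cells 3339 and 4059. The Camp-low cells of wild type are few, and every value for them rests on 229891 UMIs in all, against 9995209 in PyMT.

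Levels are given in CPM with an exact Poisson 95% interval. Differences are log2 ratios of CPM, PyMT over wild type, with an exact conditional 95% interval, and both intervals cover counting error only. A member was counted as higher or lower when its CPM differed by at least 1.5-fold and it had at least 50 UMIs over both libraries in the class. A gene without a UMI in 1 of the sums compared was set to 3 UMIs there and was never counted as higher in that sum.

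In neutrophils as a whole, Junb was the member with the greatest excess in PyMT, Egr1 was higher as well, and Fosb and Atf3 were lower. That is 2 of 9 members higher, where 7.11% of the 9927 genes with 50 UMIs were, and 2 of 9 lower, where 42.6% of all genes were. The median log2 ratio of the 9 members was 0.06, and that of all genes was -0.47. The 50 most abundant genes took 63.9% of UMIs in PyMT and 61.3% in wild-type neutrophils. Scaling by the trimmed mean of M-values raised every neutrophil log2 ratio by 0.45, which turned Fosl2 from -0.23 to above 0 and left the signs of the other 8 members.

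Among the FOS genes, Fosb stood out. Fosb encodes a FOS protein that is induced together with Fos. Its level in neutrophils was 20.9 CPM in wild type (95% interval 19.3 to 22.6) and 6.12 CPM in PyMT (5.45 to 6.86), a log2 ratio of -1.77 (-1.98 to -1.57). The PyMT level was the lower one in Camp-high cells, at 17.8 against 3.24 CPM, and in Camp-intermediate cells, at 48.5 against 6.94 CPM. In Camp-low cells it was 13.05 CPM from 3 UMIs in wild type and 10.2 CPM in PyMT, and the interval of that ratio runs across 0 (-1.94 to 1.95). Fosb was at least 1.5-fold lower under each of the 14 processing alternatives in neutrophils.

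Fos encodes the first FOS protein described and is a marker of recent stimulation. Its totals were nearly equal: 404 CPM (397 to 411) in wild-type and 421 CPM (415 to 427) in PyMT neutrophils. The equal totals held different levels within the strata. In Camp-high cells Fos was 364 CPM in wild type and 229 CPM in PyMT, a log2 ratio of -0.67 (-0.72 to -0.62). Camp-intermediate cells had 718 and 310 CPM, and the log2 ratio was -1.21 (-1.28 to -1.14). The Camp-low cells of wild type had 853 CPM (737 to 981) and those of PyMT 1005 CPM (985 to 1025), so that the log2 ratio was 0.24 (0.03 to 0.45). So Fos was lower in PyMT at high and intermediate Camp and slightly higher in the Camp-low sum, and PyMT had many more cells at low Camp. Within that stratum, 28 of 56 wild-type and 1781 of 2057 PyMT cells lay below 0.5% Camp. Below 0.5%, Fos was 997 CPM (829 to 1189) in wild type and 1156 CPM (1133 to 1180) in PyMT. At 0.5 to 1% Camp, Fos was lower in PyMT, at 682 CPM (534 to 859) in wild type and 435 CPM (407 to 464) in PyMT. With the PyMT strata weighted to the wild-type mix (a choice made once results were known) the log2 ratio of Fos in all neutrophils was -0.73.

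Fosl2 encodes FRA2, a FOS protein that persists longer after stimulation. It stood at 43.3 CPM in wild-type and 36.9 CPM in PyMT neutrophils. Camp-high cells had 40.8 and 24.3 CPM, and Camp-intermediate cells had 63.2 and 35.5 CPM. Fosl2 followed Fos in both strata, with log2 ratios of -0.74 and -0.83, and its Camp-low values of 73.9 CPM (17 UMIs) and 63.9 CPM did not separate.

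**Figure D1:**
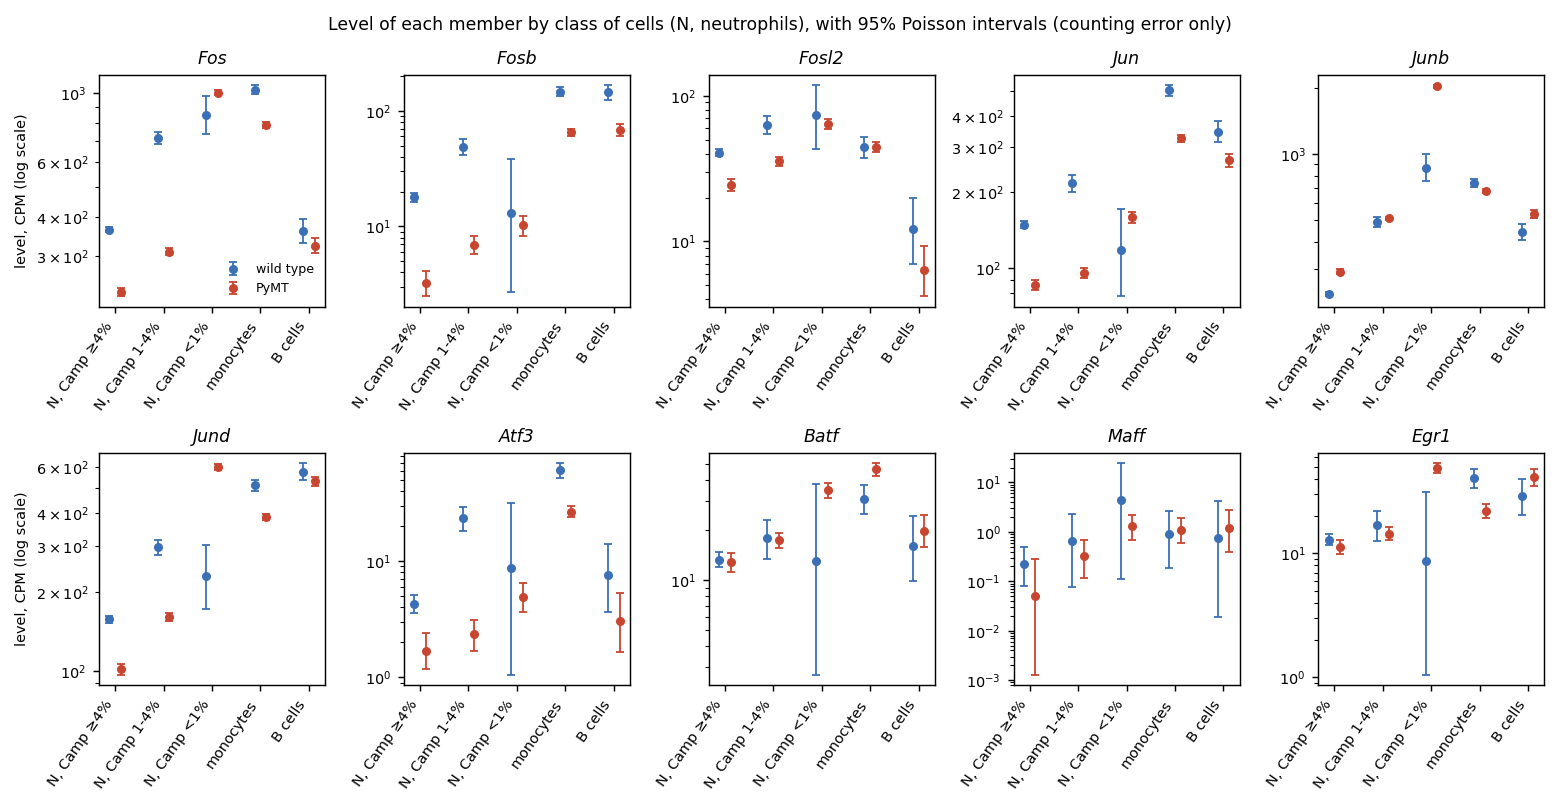
Level of each of the 10 members in CPM (log axis, each panel with its own range) in the 3 Camp strata of neutrophils (N), monocytes and B cells, for wild type (blue) and PyMT (red), with exact Poisson 95% intervals that cover counting error only. Fosb lay lower in PyMT, with intervals apart, in every class drawn but the Camp-low neutrophils, and Junb reached its highest level, 2038 CPM, in the Camp-low neutrophils of PyMT.

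The JUN genes differed among themselves. Junb encodes a protein that pairs with FOS proteins and often replaces JUN after stimulation. Its level was 263 CPM (257 to 269) in wild-type and 738 CPM (731 to 746) in PyMT neutrophils, a log2 ratio of 1.49 (1.46 to 1.53). In cells thinned to 1000 UMIs each, 21.6% of wild-type and 49.5% of PyMT neutrophils held a Junb UMI (65.2% and 92.1% without thinning). No class here lacks Junb, so a background share could not be taken. In CPM within 2 of the strata the libraries were much closer: Camp-high cells had 231 and 292 CPM, and Camp-intermediate cells had 490 and 510 CPM. A stratum does not hold Camp equal. Of the Camp-high cells, 827 of 3456 in wild type and 1434 of 1619 in PyMT lay at 4 to 6% Camp. At that step Junb was 346 CPM in wild type and 301 CPM in PyMT. Trimmed-mean scaling raised the log2 ratios of these strata by 0.45 and 0.73. Over the alternatives, the Junb ratio reached 0.83 in both strata, past 1.5-fold higher in PyMT. The Camp-low cells differed, with 870 CPM (754 to 999) in wild type and 2038 CPM (2010 to 2066) in PyMT, a log2 ratio of 1.23 (1.03 to 1.44). Weighted to the wild-type mix of strata, the log2 ratio of Junb in all neutrophils was 0.32. That mix gave Camp-low cells 0.756% of neutrophil UMIs, against 20.7% in PyMT, and so nearly left out the stratum where Junb differed most. Whether the excess in the total came from the mix of cells or from the higher Camp-low level was not tested.

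Jun encodes the JUN protein with the strongest activating effect. Its level was 155 CPM in wild-type and 105 CPM in PyMT neutrophils, a 1.48-fold lower value that fell just short of the 1.5-fold limit. It was lower in PyMT in Camp-high cells (149 and 85.7 CPM, log2 ratio -0.79) and in Camp-intermediate cells (217 and 95.9 CPM, log2 ratio -1.18). In cells without a UMI of the monocyte receptors Csf1r and Ccr2, these ratios were -0.40 and -0.27, both under 1.5-fold. Camp-low cells had 117 CPM (77.4 to 171, 27 UMIs) and 159 CPM (151 to 167), and their ratio's interval reached below 0.

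Jund encodes the JUN protein that most cells make without stimulation. It was 172 CPM in wild-type and 227 CPM in PyMT neutrophils, and it was lower in PyMT at high Camp (158 and 101 CPM, log2 ratio -0.64) and at intermediate Camp (297 and 160 CPM, -0.89). In Camp-low cells the order was the other way round, with 231 CPM (173 to 302) in wild type and 599 CPM (584 to 614) in PyMT, a log2 ratio of 1.38 (0.99 to 1.80). Jund was thus the member whose difference changed sign most clearly between the strata. No test of that change was possible with 1 library in each group.

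Atf3, Batf and Maff were sparse. Atf3 encodes a bZIP protein that restrains inflammatory genes in myeloid cells. It was 6.28 CPM (5.43 to 7.24, 191 UMIs) in wild-type and 2.61 CPM (2.17 to 3.10, 126 UMIs) in PyMT neutrophils, a log2 ratio of -1.27 (-1.61 to -0.94). The 40 wild-type cells with the most Atf3 held 44.0% of its UMIs, and the 55 PyMT cells with the most held 54.0%. Such shares are high for any gene with few UMIs and do not show that few cells set the level. Without cells that held a UMI of Csf1r or Ccr2 (15.6% of wild-type and 19.99% of PyMT neutrophils), the log2 ratio was 0.73, the opposite direction, and in Camp-high cells it moved from -1.34 to 0.85. In Camp-intermediate cells it moved from -3.32 to -1.56 and stayed lower in PyMT. Cells with such a UMI made up 12.4% of wild-type and 13.2% of PyMT Camp-high cells, and 38.5% and 21.0% of Camp-intermediate cells. In wild-type Camp-intermediate cells, 9 of 10 monocyte markers reached 50 CPM, against 4 of 10 in PyMT.

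Batf encodes a protein that pairs with JUN proteins and is best known in lymphocytes. Its level was 13.8 CPM in wild-type and 19.1 CPM in PyMT neutrophils, under 1.5-fold apart. Its Camp-high levels of 13.3 and 12.8 CPM did not separate. Camp-low cells had 3 UMIs in wild type (13.05 CPM, 2.69 to 38.1) and 34.8 CPM (31.3 to 38.7) in PyMT, and the ratio's interval (-0.14 to 3.70) included 0. Maff encodes a small MAF protein without an activation domain. It had 9 UMIs in the neutrophils of wild type against 20 in those of PyMT and was too sparse in every class to compare. Its monocyte and B cell sums were 3 and 1 UMIs in wild type and 13 and 5 in PyMT.

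Egr1, a zinc finger factor that the same MAP kinase and SRF signals induce, was 13.3 CPM (12.03 to 14.7) in wild-type and 20.2 CPM (19.0 to 21.5) in PyMT neutrophils, a log2 ratio of 0.60 (0.44 to 0.78), just past 1.5-fold. Its levels at high Camp (12.9 and 11.2 CPM) and at intermediate Camp (16.9 and 14.4 CPM) had overlapping intervals. The Camp-low cells of PyMT had 48.6 CPM (44.4 to 53.1), while the wild-type ones held 2 UMIs (8.70 CPM, 1.05 to 31.4), a log2 ratio of 2.48 (0.62 to 5.53). Egr1 in PyMT was thus concentrated in Camp-low cells, and with the strata weighted to the wild-type mix its ratio in all neutrophils was -0.16.

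**Figure D2:**
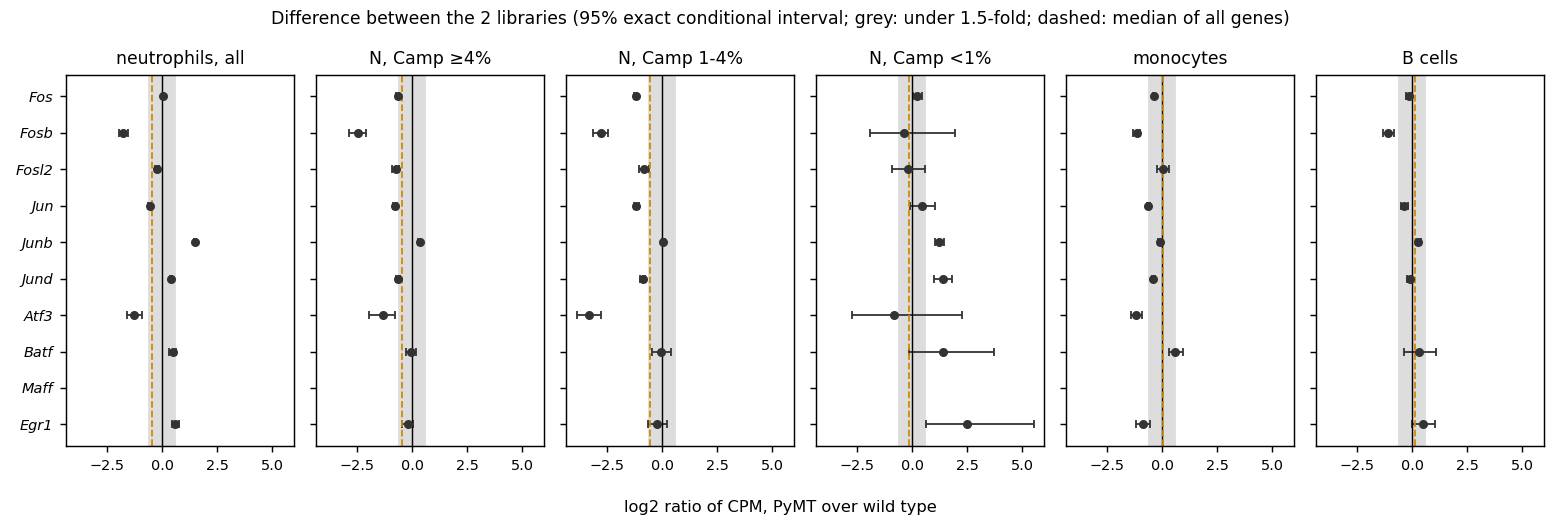
log2 ratio of CPM, PyMT over wild type, for the members with at least 50 UMIs in each class of cells, with exact conditional 95% intervals. The grey band is under 1.5-fold and the dashed line is the median of all genes, which lay at -0.47 in all neutrophils and 0.02 in monocytes. Fosb lay left of the band in all panels but the Camp-low neutrophils (N); under trimmed-mean scaling the neutrophil panels would shift right by 0.45 to 0.73.

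Counted over strata, 6 of 9 members were lower in PyMT and none higher in Camp-high cells (41.1% of all genes lower and 3.21% higher). The 6 were Fos, Fosb, Fosl2, Jun, Jund and Atf3, and the median of the 9 was -0.67 against -0.45 for all genes. Camp-intermediate cells gave 6 of 9 lower and none higher as well (49.2% and 5.31% of all genes), with a median of -0.89 against -0.57, and the 6 were again Fos, Fosb, Fosl2, Jun, Jund and Atf3. Under trimmed-mean scaling, 2 of the 6 stayed lower in each stratum, Fosb and Atf3, because the scaling raised the ratios by 0.45 and 0.73. Of the 10 monocyte markers, 8 were lower in PyMT in each of these strata, with medians of -1.63 (Camp-high) and -2.19 (Camp-intermediate). Their summed level was 22807 CPM in wild type and 21958 CPM in PyMT in Camp-high cells, and 23286 and 17102 CPM in Camp-intermediate cells. In Camp-high cells, 4 of these markers reached 50 CPM in wild type and 2 in PyMT. Those few hold nearly all of the Camp-high sums, which therefore say little about the other markers. Without cells with Csf1r or Ccr2, the counts were 1 member higher and 2 lower of 9 in Camp-high cells, and none higher and 4 lower of 8 in Camp-intermediate cells. In Camp-low cells 4 of 9 were higher (Junb, Jund, Batf and Egr1) where 18.6% of all genes were, and Atf3 was the 1 lower, where 30.5% of all genes were. Of these, Batf, Egr1 and Atf3 had 3, 2 and 2 wild-type UMIs and reached 50 UMIs only through PyMT, which had far more UMIs in this stratum. The intervals of Batf (-0.14 to 3.70) and Atf3 (-2.76 to 2.26) included 0. Among the 4 higher, Junb and Jund alone had 50 wild-type UMIs (200 and 53), so the count of 4 gives no support beyond these.

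Within the PyMT library, all 9 members with enough UMIs were at least 1.5-fold higher in Camp-low than in Camp-high neutrophils, where 26.7% of all genes were higher and 20.7% lower. The median log2 ratio of the members was 1.66, and that of all genes 0.05. Junb was 6.97-fold higher (log2 ratio 2.80, 2.76 to 2.84), Jund 5.91-fold and Fos 4.38-fold. Jun had the lowest ratio, 1.85-fold. All 9 stayed past 1.5-fold in each of the 13 alternatives. In wild type, 4 of 9 members were higher in Camp-low cells (25.6% of all genes) and none lower (16.2%). These were Junb (3.76-fold, 1.70 to 2.11 on the log2 scale), Fos (2.34-fold), Fosl2 (1.81-fold, 17 UMIs) and Atf3, whose 2 UMIs gave a log2 ratio of 1.02 (-2.04 to 2.90). The median of the 9 was 0.55. That of all genes was 0, with 1384 of the 8513 genes held at 0 because they had no UMI in 1 of the sums and their bound gave no direction.

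Finer steps of Camp showed where the libraries met and where they parted. Junb at 2 to 4% Camp was 469 CPM in wild type and 473 CPM in PyMT, at 4 to 6% it was 346 and 301 CPM, and at 6 to 8% it was 205 and 214 CPM. Fos over the same steps was 724 and 293 CPM, 509 and 231 CPM, and 334 and 208 CPM. In CPM the 2 Junb levels were close at these steps, while Fos was higher in wild type at each of them. Trimmed-mean scaling raised all ratios by 0.45 in Camp-high and 0.73 in Camp-intermediate cells. Over the alternatives, the Junb ratio reached 0.83 in both strata. That of Fos stayed below 0, at up to -0.17 and -0.44. Below 0.5% Camp, Junb reached 1126 CPM in 28 wild-type cells and 2376 CPM in 1781 PyMT cells. Jund and Egr1 in PyMT were also concentrated below 0.5% Camp: Jund was 697 CPM there against 230 CPM at 0.5 to 1%, and Egr1 was 57.6 against 14.8 CPM. The depth of PyMT cells changed along the same axis, from a median of 3768 UMIs below 0.5% Camp to 11660 at 4 to 6%.

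**Figure D3:**
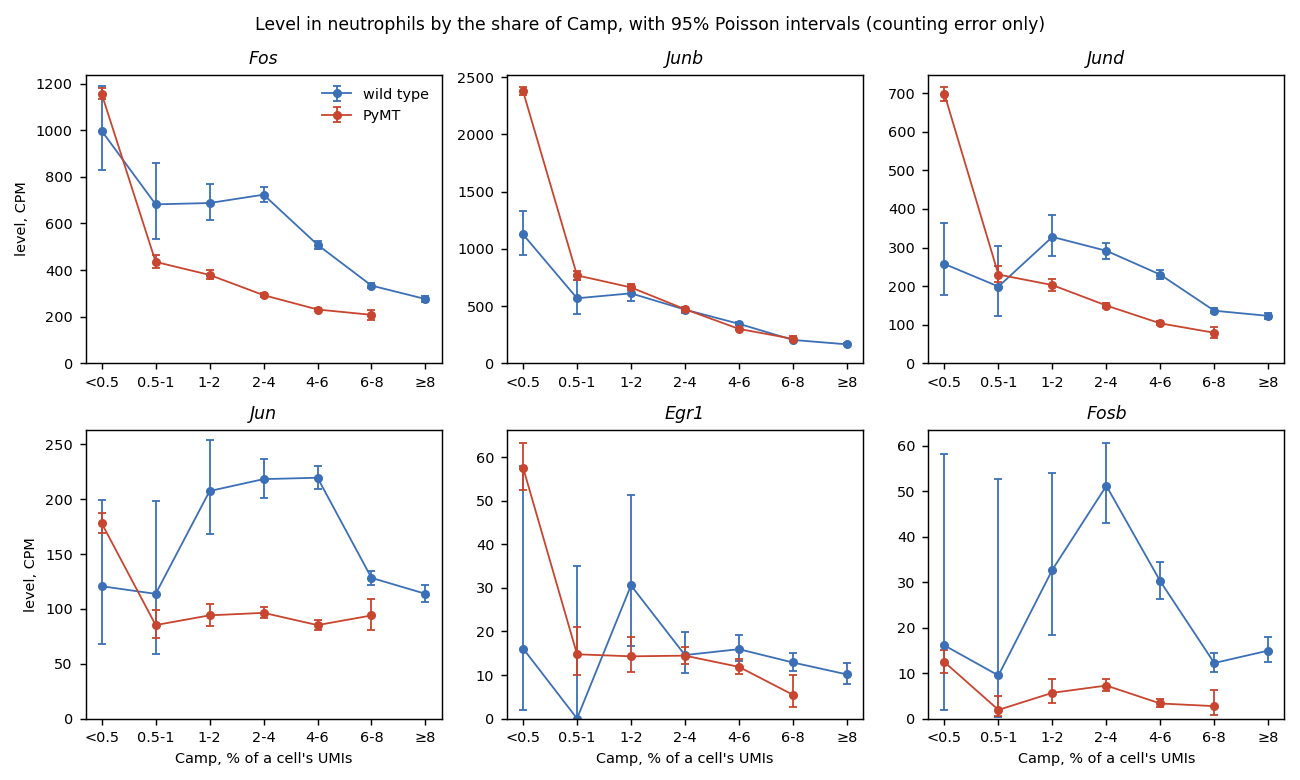
Level in CPM (linear axes from 0) of Fos, Junb, Jund, Jun, Egr1 and Fosb in neutrophils grouped by the share of a cell's UMIs that came from Camp, with exact Poisson 95% intervals, for wild type (blue) and PyMT (red). The lines connect bins of 1 library, the PyMT bin of 16 cells at 8% or more is not drawn, and the first 2 wild-type bins hold 28 cells each. Junb of both libraries lay close together between 2 and 8% Camp, while Fos, Jund and Fosb of PyMT lay below wild type there. Trimmed-mean scaling would raise PyMT over wild type by 0.45 on the log2 scale in Camp-high and 0.73 in Camp-intermediate cells.

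The Camp-low cells of PyMT were themselves not uniform. Those with at least 1% of UMIs from Wfdc17, a small secreted protein of activated myeloid cells, numbered 1545, and 512 had less. Junb was 2562 CPM in the former and 1048 CPM in the latter, Fos 1255 and 531 CPM, Jund 743 and 326 CPM, and Egr1 64.3 and 19.1 CPM. These 4 are given as levels only: the other members are not given for this split, and no share over all genes was taken. The median cell held 3587 UMIs in the former and 6376 in the latter. Only 1 wild-type Camp-low cell reached 1% Wfdc17, so this comparison was made within PyMT. Against the 55 wild-type Camp-low cells under 1% Wfdc17, the 512 PyMT cells had 1048 against 855 CPM of Junb (log2 ratio 0.29) and 531 against 864 CPM of Fos (-0.70). Jund was 326 against 231 CPM there, a log2 ratio of 0.49 that was under 1.5-fold, and Egr1 was 19.1 against 8.90 CPM, a log2 ratio of 1.10 whose interval (-0.81 to 4.17) included 0, from 2 wild-type UMIs.

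The number of members seen in each cell was counted as well. After thinning to 1000 UMIs, 39.0% of PyMT Camp-low neutrophils held UMIs of 3 or more members, against 2.90% of PyMT Camp-high cells. In wild type these shares were 14.3% and 3.96%. In monocytes the order of the libraries was the other way round, with 38.1% in wild type and 23.5% in PyMT. Such shares rise with the level of each member alone. In the thinned Camp-low cells of PyMT, 80.1% held a Junb UMI, 58.0% a Fos UMI and 44.7% a Jund UMI. Whether members met in a cell more often than their single shares give was not tested.

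In monocytes, 4 of 9 members were at least 1.5-fold lower (Fosb, Jun, Atf3 and Egr1), where 7.77% of all genes were, and Batf was the 1 higher, where 8.77% were. The median of the 9 was -0.40 and that of all genes 0.02, and trimmed-mean scaling moved monocyte ratios by 0.02. Fosb was 147 CPM (134 to 160) in wild type and 65.2 CPM (60.7 to 70.0) in PyMT, a log2 ratio of -1.17 (-1.34 to -1.001). Atf3 was 60.4 CPM (52.2 to 69.4) in wild-type and 26.6 CPM (23.8 to 29.8) in PyMT monocytes, and its log2 ratio was -1.18 (-1.44 to -0.92). Both stayed at least 1.5-fold lower in all 11 alternatives run in monocytes.

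Jun in monocytes was 504 CPM (480 to 529) in wild type and 326 CPM (316 to 336) in PyMT, a log2 ratio of -0.63. Egr1 was 40.5 CPM and 22.02 CPM, a log2 ratio of -0.88 (-1.19 to -0.57). Fos was 1027 CPM and 791 CPM, Jund 511 and 386 CPM, and Junb 741 and 683 CPM, each lower in PyMT by less than 1.5-fold. Fosl2 did not separate, at 44.2 and 44.6 CPM. Batf went the other way, with 30.8 CPM (25.1 to 37.4) in wild type and 46.6 CPM (42.8 to 50.7) in PyMT, a log2 ratio of 0.60 (0.29 to 0.92).

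The monocytes were a mixture in both libraries. Among cells with Ly6c2, the marker of classical monocytes, and no UMI of Ace or Treml4 (244 in wild type and 941 in PyMT), the log2 ratios were -1.23 for Fosb, -0.63 for Jun, -1.11 for Atf3 and -0.84 for Egr1. The lower values were thus present within this subset. The converse subset, with Ace or Treml4 and without Ly6c2, held 60 and 35 cells and gave 1 Egr1 and 3 Atf3 UMIs in PyMT. The 10 neutrophil markers summed to 2626 CPM in wild-type and 3880 CPM in PyMT monocytes. The 6 dendritic cell markers summed to 95.7 and 18.2 CPM, among them Cd209a at 75.3 and 7.60 CPM. The 6 macrophage markers summed to 88.7 and 67.0 CPM, among them Spic at 34.4 and 6.83 CPM. The part of these other cell types in the monocyte values was not tested.

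In B cells, 7 members had enough UMIs, and Fosb was the 1 that differed by 1.5-fold. It was 145 CPM (125 to 167) in wild type and 68.1 CPM (60.5 to 76.5) in PyMT, a log2 ratio of -1.09 (-1.36 to -0.81). No member was higher, where 12.9% of all genes were, and 4.19% of all genes were lower. Fos was 361 and 324 CPM, Jun 346 and 267 CPM, Junb 442 and 536 CPM, and Jund 576 and 529 CPM. The log2 ratios of these 4 ran from -0.37 for Jun to 0.28 for Junb. Batf was 16.1 and 19.9 CPM and Egr1 29.1 and 40.9 CPM, with overlapping intervals. The median of the 7 was -0.12 against 0.11 for all genes. Atf3, Fosl2 and Maff had under 50 UMIs.

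Other transcripts differed between the B cells of the libraries as well. The 6 natural killer cell markers summed to 193 CPM in wild type and 35.5 CPM in PyMT, and the 4 erythroid markers to 8.41 and 2451 CPM. Il1b, a cytokine gene of neutrophils and monocytes, was 105 and 317 CPM in these B cells. Their part in the B cell values was not tested.

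Other members of the same pathways were read from lists, each described here by its counts beside the same counts over all genes. Over all genes, 7.11% were higher and 42.6% lower in neutrophils, 8.77% and 7.77% in monocytes, and 12.9% and 4.19% in B cells. Among other immediate-early genes in neutrophils, 18 of 26 had enough UMIs, 4 were higher in PyMT and 3 lower, with a median of 0.09. Csrnp1 (11.9 and 26.9 CPM), the kinase gene Sgk1 (25.1 and 52.2 CPM) and Btg1 (282 and 568 CPM) were higher. Klf4 (21.1 and 7.32 CPM), a monocyte factor, and Nr4a1 (27.9 and 9.89 CPM), a nuclear receptor, were lower, as was Rhob (103 and 50.7 CPM). In monocytes the counts were 2 higher and 3 lower of 18, with Nr4a1 lower again (174 and 101 CPM), and in B cells 2 and 2 of 16.

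The feedback list holds genes that switch these signals off, such as phosphatases of MAP kinases. In neutrophils 6 of 16 were higher and 6 lower. Socs3, the inhibitor of cytokine receptor signals, had the largest ratio, at 7.63 CPM in wild type and 132 CPM in PyMT, and it was also higher in monocytes (37.5 and 118 CPM) and B cells (13.001 and 71.9 CPM). Spry2 and Zfp36l1 were higher in neutrophils too, with log2 ratios of 2.22 and 1.72. Nab2, which represses EGR1 (-2.32), Spred2 (-1.74) and Tnfaip3 (-1.59) were lower. Monocytes had 1 higher and 5 lower of 14, with Nab2, Dusp2 and Tnfaip3 the lowest, and B cells had 4 higher and none lower of 12.

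Among other bZIP factors, 2 of 28 were higher in PyMT neutrophils and 11 lower, where 42.6% of all genes were lower. The list median was -0.33 against -0.47 for all genes. Nfil3 (21.3 and 52.4 CPM) and Cebpb (450 and 849 CPM), a factor of emergency granulopoiesis, were the 2 higher. Batf3, Maf and Dbp were the lowest, with log2 ratios of -2.26, -2.14 and -1.84. Monocytes had 2 higher and 5 lower of 27, and B cells 2 and 2 of 21. Of the MAP kinase and SRF genes that carry signals to Fos and Egr1, none of 30 was higher in PyMT neutrophils and 11 were lower. Among the lower were Rps6ka5 (-1.24), Srf (-1.15) and Mapkapk2 (-0.92). The lower count was near the 42.6% of all genes, and the list median was -0.37 against -0.47 for all genes. That list had none higher and 3 lower of 28 in monocytes, and 1 and 1 of 26 in B cells.

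Known targets of AP-1 and EGR1 split in both directions. In neutrophils 7 of 20 lay higher in PyMT and 9 lay lower, and the median was -0.34. Il1b was 27.7 CPM in wild type and 466 CPM in PyMT, the decoy receptor gene Il1r2 16.7 and 60.9 CPM, and the chemokine gene Cxcl2 62.5 and 135 CPM. Thbs1, which encodes thrombospondin, was the lowest, at 143 and 3.23 CPM, and Icam1 (8.29 and 2.75 CPM) and Tnf (33.7 and 16.0 CPM) were lower as well. Monocytes had 3 higher and 5 lower of 15 and B cells 3 and 2 of 12, and the chemokine genes Ccl3 and Ccl4 were lower in both.

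Heat shock genes encode chaperones that are induced by stress. Of the 12 with enough UMIs in neutrophils, none was higher in PyMT and 7 were lower, where 42.6% of all genes were lower, with a median of -0.85. Monocytes also gave none higher and 7 of 12 lower (median -0.70), and B cells none higher, 3 of 11 lower and 8 of 11 under 1.5-fold (median -0.25). Hspa1a, an inducible HSP70 gene, was 145 CPM in wild-type and 28.0 CPM in PyMT neutrophils, 1380 and 504 CPM in monocytes, and 271 and 97.2 CPM in B cells. Hspa1b and Hsph1 were at least 1.5-fold lower in all 3 classes too. The part of sample handling in the lower Fosb, Atf3 and heat shock values was not tested, and handling and genotype cannot be told apart with 1 library in each group.

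**Figure D4:**
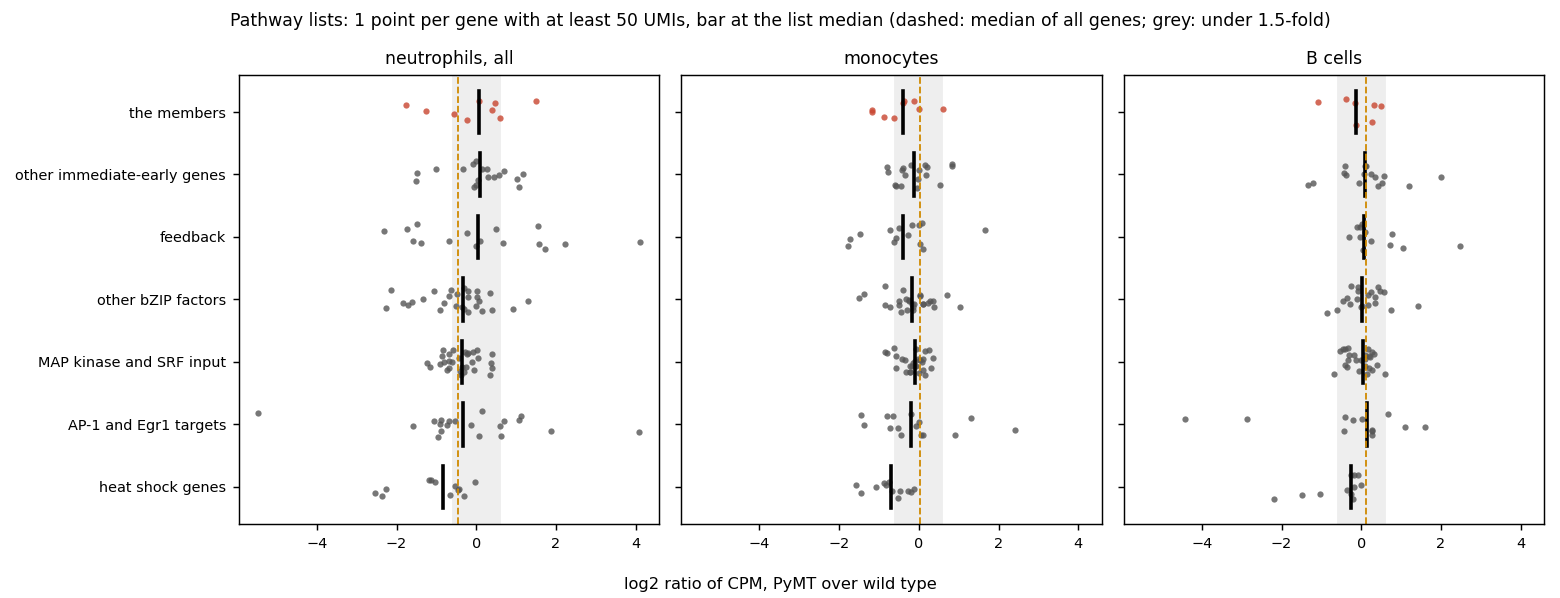
log2 ratio of CPM, PyMT over wild type, for each gene with at least 50 UMIs in the 10 members (red) and in the 6 lists, in all neutrophils, monocytes and B cells. Black bars are list medians, the dashed line is the median of all genes and the grey band is under 1.5-fold. The heat shock genes had medians of -0.85, -0.70 and -0.25 and no gene right of the band; trimmed-mean scaling would shift the neutrophil panel right by 0.45.

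The same steps of Camp were read for the lists. From Camp-high to Camp-low cells of PyMT, 16 of 18 other immediate-early genes and 11 of 13 feedback genes were at least 1.5-fold higher and none of either lower, with medians of 1.496 and 2.23. In wild type these counts were 10 of 18 higher and 1 lower, and 9 of 12 higher and none lower. The heat shock genes had 4 of 10 higher and 1 lower in PyMT. Over all genes, 26.7% were higher and 20.7% lower in PyMT, and 25.6% and 16.2% in wild type.

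Genes whose levels ran most like a member's were sought over 10 units, the 3 Camp strata, monocytes and B cells of each library, among 8399 genes. The units share 2 libraries, so the correlations of log2(CPM + 1) describe them and carry no p. Junb ran most like Dusp1 (Pearson r = 0.97), a MAP kinase phosphatase, followed by Cd300ld and Tbc1d14. Atf3 ran most like Tmbim1, Nr4a1 (r = 0.98) and Atox1, Fos most like Rgs2 (r = 0.98), Tspyl1 and Glipr1, Jun most like Zmiz1 (r = 0.99), Slc15a4 and Tm9sf4, and Egr1 most like Wdtc1 (r = 0.96), Fem1c and Ppm1d. Among the members, Jun and Fosb ran most alike (r = 0.96), while Junb and Fosb had r = 0.05.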

How the data were processed

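CD11b+/Gr1+ cells were sorted from pooled spleens and made into 3′ libraries on the 10x Genomics Chromium platform (version 2 reagents, 48488 reads per cell on average), per the labels' protocols. The submitters' processing notes name Cell Ranger 2.1.0 and mm10 for the authors' steps from reads to counts. The deposited matrices hold raw UMI counts per gene and cell (42542700 UMIs in 5491 wild-type cells and 73435307 in 9155 PyMT cells). The lowest kept cell held 2752 UMIs in wild type and 2502 in PyMT, and the source of that lower limit is not given in the sources read here.

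A cell was used if it had 200 genes or more and no more than 10% of its UMIs were mitochondrial; 5 PyMT cells failed this. Cells that met both the monocyte and the B cell rule (71 in each library) were left out of both classes. UMIs were summed per library and class in Python 3.11.15 with numpy 2.4.6, pandas 2.3.3 and scipy 1.17.1, and figures were drawn with matplotlib 3.10.9. Levels carry exact Poisson, shares exact Clopper-Pearson and ratios exact conditional 95% intervals. No doublet caller was run; leaving out the cells with the most UMIs was tried instead (241 wild-type and 671 PyMT cells, 0.8% per 1000 cells). Thinning drew 1000 UMIs from each cell and left out none. With 1 library in each group no test was run. The ratio step was tested on simulated data.

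The members, lists and subsets were chosen with earlier results of these data known. All members are named. Of each list, up to 3 genes with the highest and up to 3 with the lowest ratio past 1.5-fold were named in neutrophils, monocytes and B cells, and for 5 members the 3 genes with the most similar pattern. The alternatives covered the scaling, the filters on cells and UMIs, the class limits, the Camp limits, thinning, equal weight per cell, leaving out cells with Csf1r or Ccr2, leaving out cells with Top2a or Mki67, and weighting the strata.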

Additional observations from a re-analysis of the deposited data

Results flagged for a closer look

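Each result here was picked out because a member's ratio between the libraries lay past 1.5-fold in opposite directions in 2 classes of cells, with neither interval reaching 0. None of these differences between classes was tested, since each group is 1 library. Jund had a log2 ratio of PyMT over wild type of -0.6354 in Camp-high and -0.8897 in Camp-intermediate neutrophils, and of 1.3772 in Camp-low neutrophils, where wild type had 56 cells and 53 Jund UMIs. Among Camp-low cells under 1% Wfdc17 the Jund ratio was 0.49, under 1.5-fold, and that of Egr1 was 1.10 with an interval of -0.81 to 4.17. Under trimmed-mean scaling the Camp-high and Camp-intermediate ratios of Jund stayed below 0 but were under 1.5-fold. Egr1 had a log2 ratio of 0.6046 in all neutrophils and of 2.4826 in Camp-low neutrophils, the latter from 2 wild-type UMIs, against -0.8805 in monocytes.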

How the results depend on the processing

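No paired analysis was possible because each group is 1 library. Of 202 alternative counts of members, 154 lay within 1.5 times the reported count and 48 did not. Counts of members higher in PyMT neutrophils (2 as reported) were 0 with the strata weighted to the wild-type mix, 5 after thinning or with equal weight per cell, 4 with median-of-ratios or trimmed-mean scaling, and 1 with a 20% limit on S100a8 and S100a9 or without cells with Top2a or Mki67. The count lower there (2) was 6 with the weighted strata and 1 with equal weight per cell, with the 20% limit or without cells with Csf1r or Ccr2. In Camp-high cells, 1 was higher (0 as reported) under either scaling and without cells with Csf1r or Ccr2, and the 6 lower became 2 under those settings and 3 with totals that left out the 50 most abundant genes. In Camp-intermediate cells, 2 were higher (0 as reported) under either scaling or thinning, and the 6 lower became 2 under either scaling and 3 with the 20% limit. The 1 lower in Camp-low cells became 0 with Camp limits of 5% and 0.5%, equal weight, either scaling, the 20% limit, without cells with Csf1r or Ccr2, without cells with Top2a or Mki67, without the cells with most UMIs and after thinning, and 2 with a minimum of 10 UMIs. In monocytes, the 1 higher became 0 with at least 3 UMIs of Csf1r and Ccr2 and S100 under 1% (58 PyMT cells), without the 50 most abundant genes and without the cells with most UMIs, and the 4 lower became 2 after thinning. In B cells, the 1 lower became 4 with at least 5 UMIs of Cd79a and Cd79b and S100 under 1% (52 PyMT cells), 2 with cells that met both rules and 3 with a minimum of 10 UMIs. Members lower in Camp-low than in Camp-high wild-type cells (0 as reported) were 1 after thinning, 3 with equal weight or either scaling, 2 without the 50 most abundant genes, and 4 with the 20% limit or without cells with Csf1r or Ccr2.

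Of 808 alternative ratios of single members, 560 stayed within the reported interval, 243 lay outside it, and 5 that were past 1.5-fold as reported changed sign. The 5 were Atf3 in neutrophils (0.7273) and in Camp-high cells (0.8475) without cells with Csf1r or Ccr2, Egr1 in neutrophils with the weighted strata (-0.1648), Atf3 in Camp-low cells with equal weight per cell (0.0301), and Fosl2 between wild-type Camp strata after thinning (-1.3923). Apart from the limits stated, the cause of these changes was not tested. Fosb kept its sign and stayed past 1.5-fold in every alternative run in all neutrophils, Camp-high and Camp-intermediate cells, monocytes and B cells. The alternatives without cells with Csf1r or Ccr2, without cells with Top2a or Mki67 and with weighted strata were chosen after seeing the data. The Camp-low comparison rests on 56 wild-type cells, which gave 2 or 3 UMIs of Fosb, Atf3, Batf and Egr1; where an alternative left a member with no UMI there and its bound had no direction, no ratio was taken.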

Other observations

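Neutrophils with a UMI of Top2a or Mki67, genes of dividing cells, were compared on their own; they numbered 517 in wild type and 361 in PyMT. Fosb was 23.4 CPM in wild type and 8.15 CPM in PyMT in these cells, a log2 ratio of -1.52, and 20.02 and 5.85 CPM in the cells without either gene, a ratio of -1.78. Junb was 220 and 346 CPM with, and 278 and 791 CPM without, these genes, so its ratio was 0.66 in the former and 1.51 in the latter. Jun was 197 and 112 CPM in the former, a ratio of -0.81, and 140 and 104 CPM in the latter, a ratio of -0.43. Median depth was 13721 and 15053 UMIs in the cells with Top2a or Mki67 and 5333 and 7931 in those without, and whether the ratios differ between these subsets was not tested.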
